A study of Mus musculus with 282 samples.

Results

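Tox2, Ntrk2, Slc34a2, Mme and Nat8 were chosen by name as genes whose liver transcript levels differed strongly between mice lacking the clock gene Bmal1 (symbol Arntl) and wild-type mice (WT), in the same direction in uninjected, vehicle-injected and rapamycin-injected animals. They are 5 of the 15907 gene symbols in the table. The levels of Bmal1 knockout livers (BMKO) against WT that chose them are therefore given as a description, without a test. The AZD8055, tunicamycin and liver knockout comparisons rest on libraries that the choice did not use. For AZD8055 and the liver knockouts, however, genes entered the test by their mean over all libraries of the table, BMKO included. The rapamycin and feeding comparisons reuse some of the libraries that entered it.

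All livers came from male C57BL/6J mice, individually caged under a light-dark cycle. No age or dose is stated in the labels. The first table holds 234 libraries in 13 arms, each with 3 biological replicates at 6 zeitgeber times (ZT, hours after lights on) from ZT 2 to ZT 22. Night-fed arms were WT and whole-body Bmal1 knockout, each uninjected, given vehicle or given rapamycin, an inhibitor of the nutrient-sensing kinase complex mTORC1. The other night-fed arms were uninjected Albumin-Cre controls, which carry the hepatocyte-directed Cre driver alone, and liver-specific knockouts of Tsc1 (TSKO), which encodes a brake on mTORC1, or of Raptor (RPKO), an mTORC1 subunit. Further WT arms were fed ad libitum, or were fed arrhythmically and left uninjected or given AZD8055, an inhibitor of the mTOR kinase, at dawn or at dusk. A second table of 48 libraries held 3 arms of WT mice given tunicamycin, which blocks N-glycosylation in the endoplasmic reticulum: night-fed, arrhythmically fed, and arrhythmically fed with AZD8055 at dusk, with 4 replicates at ZT 4, 10, 16 and 22. Values are the reads of a gene per 1000000 reads of a library (RPM) after the libraries were scaled to a common size. They come from tags at the 3′ ends of transcripts, so that a level is a share of sequenced transcripts of the whole liver, in which fewer cells of a type and less RNA per cell cannot be told apart.

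BMAL1 pairs with CLOCK or NPAS2 and binds E-box sequences, driving the genes of its own repressors (periods, cryptochromes) and of the REV-ERB nuclear receptors, which in turn repress genes that carry ROR elements. Loss of BMAL1 stops this loop, so that transcripts under its activation tend to be low and those under REV-ERB repression high. The 5 genes themselves have unrelated functions. TOX2 is an HMG-box nuclear protein best known from lymphocytes. NTRK2 (TrkB) is the receptor tyrosine kinase for the neurotrophins BDNF and NT-4, known mostly from neurons. SLC34A2 (NaPi-IIb) is the sodium-phosphate cotransporter of the apical membrane of intestinal and lung epithelium. MME (neprilysin, CD10) is a cell-surface metallopeptidase that cleaves small peptides and lies on the bile canaliculi of hepatocytes. NAT8 is the endoplasmic reticulum enzyme that N-acetylates cysteine S-conjugates, the last step of mercapturic acid formation.

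In GENCODE's GRCm38 annotation, Tox2 spans chr2:163203125-163324170 and Ntrk2 chr13:58806569-59133970, both on the plus strand. Slc34a2 spans chr5:53038081-53071664 and Mme chr3:63241537-63386030, also on the plus strand. Nat8 spans chr6:85830388-85832082 on the minus strand. Slc34a2 and Ntrk2 overlap other annotated gene models (1 and 4 of them), partly on the opposite strand, of which none is listed in the table.

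The 250 bases upstream of a start site, as listed by RefSeq for GRCm38.p6, are shown for 1 promoter of each gene to let a reader see what elements they hold. In these sequences capitals mark a GC box (GGGCGG) or a CCAAT box, on either strand. The windows are chr2:163202877-163203126 (Tox2, plus strand), chr13:58806319-58806568 (Ntrk2, plus), chr5:53049103-53049352 (Slc34a2, plus), chr3:63294961-63295210 (Mme, plus) and chr6:85832280-85832529 (Nat8, minus). The Slc34a2 and Mme windows precede start sites inside the annotated span of the gene. In the Slc34a2 window 86 bases lie in an annotated exon, counted over exons of any gene. That window overlaps the antisense model Gm17182 (chr5:53047687-53049188).
Tox2: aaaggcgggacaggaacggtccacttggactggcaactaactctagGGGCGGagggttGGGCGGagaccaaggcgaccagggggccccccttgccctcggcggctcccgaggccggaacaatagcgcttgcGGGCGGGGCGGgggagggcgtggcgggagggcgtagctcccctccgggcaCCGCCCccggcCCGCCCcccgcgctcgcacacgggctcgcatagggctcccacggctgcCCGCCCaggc
Ntrk2: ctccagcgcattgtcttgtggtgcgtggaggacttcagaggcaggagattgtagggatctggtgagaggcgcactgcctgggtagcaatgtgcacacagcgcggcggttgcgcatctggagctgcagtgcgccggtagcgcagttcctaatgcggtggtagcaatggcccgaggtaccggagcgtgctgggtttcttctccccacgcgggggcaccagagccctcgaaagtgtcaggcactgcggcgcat
Slc34a2: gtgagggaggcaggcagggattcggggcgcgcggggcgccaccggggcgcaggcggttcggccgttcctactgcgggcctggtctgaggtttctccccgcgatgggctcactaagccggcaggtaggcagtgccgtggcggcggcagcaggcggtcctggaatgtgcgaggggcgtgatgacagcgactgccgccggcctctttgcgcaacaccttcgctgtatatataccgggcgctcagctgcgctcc
Mme: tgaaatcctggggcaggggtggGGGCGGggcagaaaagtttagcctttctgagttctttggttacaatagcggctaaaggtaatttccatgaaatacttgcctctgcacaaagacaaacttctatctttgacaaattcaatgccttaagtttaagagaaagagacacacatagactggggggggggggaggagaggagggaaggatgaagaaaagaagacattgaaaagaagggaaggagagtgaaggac
Nat8: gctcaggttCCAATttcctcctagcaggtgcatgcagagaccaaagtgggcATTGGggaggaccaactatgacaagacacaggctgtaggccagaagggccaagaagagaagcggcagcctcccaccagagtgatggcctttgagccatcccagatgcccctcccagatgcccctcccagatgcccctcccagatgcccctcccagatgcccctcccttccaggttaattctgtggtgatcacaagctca

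The canonical E-box CACGTG, the E-box variant CACGTT, the ROR element core AGGTCA and the D-box TTATGTAA were searched on both strands in these windows and in the others listed for the 5 genes, 12 in all. Some of the 12 overlap each other, for Tox2 and for Mme. None of the 4 was present in any of the 12. Among all 32851 listed promoters, 6.02% held CACGTG, 3.85% CACGTT, 14.02% AGGTCA and 0.82% TTATGTAA, and elements outside this window were not searched. The Tox2 window held 7 GC boxes, 2 of which overlap, against 32.74% of promoters with at least 1. The Mme window held 1 GC box, the Nat8 window 2 CCAAT boxes (33.85% of promoters hold 1 or more), and the Ntrk2 and Slc34a2 windows neither. The Nat8 window shown is the second listed, the nearer of its 2 to the annotated span, and the first holds neither box. The TATA box TATAAA, present in 12.37% of promoters, was in none of the 5 windows shown and in 2 of the 12. These 2 precede neighbouring start sites of Tox2 within its span, in windows beginning at chr2:163225203 and chr2:163225204. They hold the same box, with its first base 31 and 32 bases before the start. The GC content of the 5 windows shown was 75.2% for Tox2, 69.6% for Slc34a2, 62.8% for Ntrk2, 58.0% for Nat8 and 45.6% for Mme. The median over each gene's first-listed promoter was 52.0%.

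The first table's libraries held 0.706 to 14.3 M reads (M, a unit of 1000000 reads; median 8.51 M) and the second's 4.85 to 10.1 M, and 3 libraries had under 3 M. Arntl tags did not separate the genotypes: they had a median of 11.9 RPM (0.176 to 26.5) in uninjected WT and 9.97 RPM (6.08 to 17.0) in uninjected BMKO, and tags at the transcript's end, if they lie beyond the deletion, do not check it. Tsc1 had a median of 14.9 RPM in Albumin-Cre and 7.57 RPM in TSKO livers, and Rptor, which encodes Raptor, 8.54 RPM in Albumin-Cre and 4.52 RPM in RPKO livers. One library labelled RPKO, ZT 18 replicate 1, went against its label in the targeted gene. Its Rptor level was 9.50 RPM, above the 2.68 to 8.11 RPM of the other 17 RPKO libraries. All 5 genes lay within the range of the 54 BMKO libraries there: Tox2 at 49.1 RPM, Ntrk2 at 19.5 RPM, Slc34a2 at 9.32 RPM, Mme at 3.29 RPM and Nat8 at 0.365 RPM. The clock repressor Cry1 was at 63.0 RPM, against 2.64 to 36.7 RPM in the other RPKO and 34.6 to 90.9 RPM in the BMKO libraries. Over all genes tested, however, its log2 deviations from the mean of the 179 libraries that were neither BMKO nor itself correlated more with those of the other 2 RPKO libraries of ZT 18 (r = 0.68 across genes) than with those of the 9 BMKO libraries of ZT 18 (0.31). Results with the RPKO arm are given with and without this library.

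Tox2, Ntrk2 and Slc34a2 were high and Mme and Nat8 low in livers without Bmal1. In uninjected livers the differences ranged from 15.9-fold to 68.7-fold on the scale of RPM + 0.5, and these sizes depend on the pseudocount. With 0.1 and with 2 added in place of 0.5, the log2 differences were 6.79 and 4.98 for Tox2, 5.25 and 3.37 for Ntrk2, 5.01 and 2.76 for Slc34a2, -5.57 and -3.60 for Mme, and -4.87 and -3.55 for Nat8. Of the 15 combinations of gene and treatment, 14 had no overlap between the 18 WT and the 18 BMKO libraries. Over all 12413 genes tested, every uninjected BMKO library was above every WT library for 6.17% and below for 3.09%. With vehicle these shares were 0.387% and 0.218%, and with rapamycin 0.556% and 0.395%. The genes were chosen on these contrasts, so nothing is read from their counts.

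Tox2 ranged from 0 to 9.11 RPM (median 0.686) in uninjected WT and from 53.9 to 173 RPM (median 91.8) in uninjected BMKO livers. With vehicle it ranged from 0.373 to 11.9 RPM (median 1.83) in WT and from 19.0 to 98.3 RPM (median 49.4) in BMKO. With rapamycin the WT range was 0 to 5.29 RPM (median 0.576) and the BMKO range 30.0 to 136 RPM (median 58.4). All 54 BMKO libraries thus lay above all 54 WT libraries of the same feeding schedule. The difference of daily means, in which each time counts equally, was 6.10 ± 0.23 (log2 of RPM + 0.5, ± SE) uninjected, 4.45 ± 0.23 with vehicle and 5.59 ± 0.23 with rapamycin, the highest of all genes tested in each case.

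Ntrk2 had a median of 0.774 RPM (0 to 4.75) in uninjected WT and 28.0 RPM (10.7 to 69.7) in BMKO. Vehicle-injected livers had 0.805 RPM (0 to 4.05) and 23.6 RPM (11.8 to 39.2). Rapamycin-injected livers had 0.562 RPM (0 to 10.1) and 37.7 RPM (22.1 to 61.8). No WT library reached the lowest BMKO library of its treatment. On the log2 scale the differences were 4.50 ± 0.26, 4.00 ± 0.26 and 4.94 ± 0.26, which ranked 3, 4 and 2 among the higher genes.

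Slc34a2 had a median of 0.422 RPM (0 to 1.91) in uninjected WT and 15.1 RPM (2.24 to 40.8) in BMKO, and 0.642 RPM (0 to 1.88) and 10.5 RPM (1.97 to 57.4) with vehicle. These 4 groups did not overlap within a treatment, although the highest WT and lowest BMKO libraries came close. Under rapamycin the separation was lost: WT ranged from 0 to 29.2 RPM (median 4.53) and BMKO from 4.35 to 34.8 RPM (median 13.9), with 14 of 18 BMKO libraries inside the WT range and 10 of 18 WT libraries inside the BMKO range. The log2 differences were 3.99 ± 0.24, 3.42 ± 0.24 and 1.89 ± 0.24. They ranked 9, 7 and 48, so that Slc34a2 under rapamycin is the value nearest to the edge of the selection. The 5 genes are not the 5 with the largest differences. Among genes not chosen, Serpina12 had 4.37, 3.17 and 2.39 in the 3 sets, 3930402G23Rik 4.08, 3.38 and 3.77, and, among lower genes, Gm4956 -4.63, -3.04 and -2.34.

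Mme went the other way, from a median of 32.1 RPM (22 to 43.2) in uninjected WT to 0.546 RPM (0 to 2.03) in BMKO. With vehicle it was 37.6 RPM (17.2 to 58.8) and 2.90 RPM (1.42 to 4.44), and with rapamycin 24.6 RPM (11.3 to 35.9) and 1.24 RPM (0.412 to 3.14). Every BMKO library was below every WT library. The log2 differences were -4.78 ± 0.17, -3.48 ± 0.17 and -3.66 ± 0.17, the lowest of all genes uninjected and the third lowest in both injected sets.

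Nat8 had a median of 34.9 RPM (15.6 to 67.0) in uninjected WT and 1.09 RPM (0.353 to 4.28) in BMKO, 30.1 RPM (14.7 to 62.2) and 1.59 RPM (1.08 to 2.71) with vehicle, and 39.7 RPM (8.98 to 84.0) and 1.42 RPM (0.356 to 2.90) with rapamycin. The groups did not overlap. Differences were -4.43 ± 0.18, -3.81 ± 0.18 and -4.25 ± 0.18 on the log2 scale, the third lowest uninjected and the lowest of all genes in both injected sets.

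**Figure D1:**
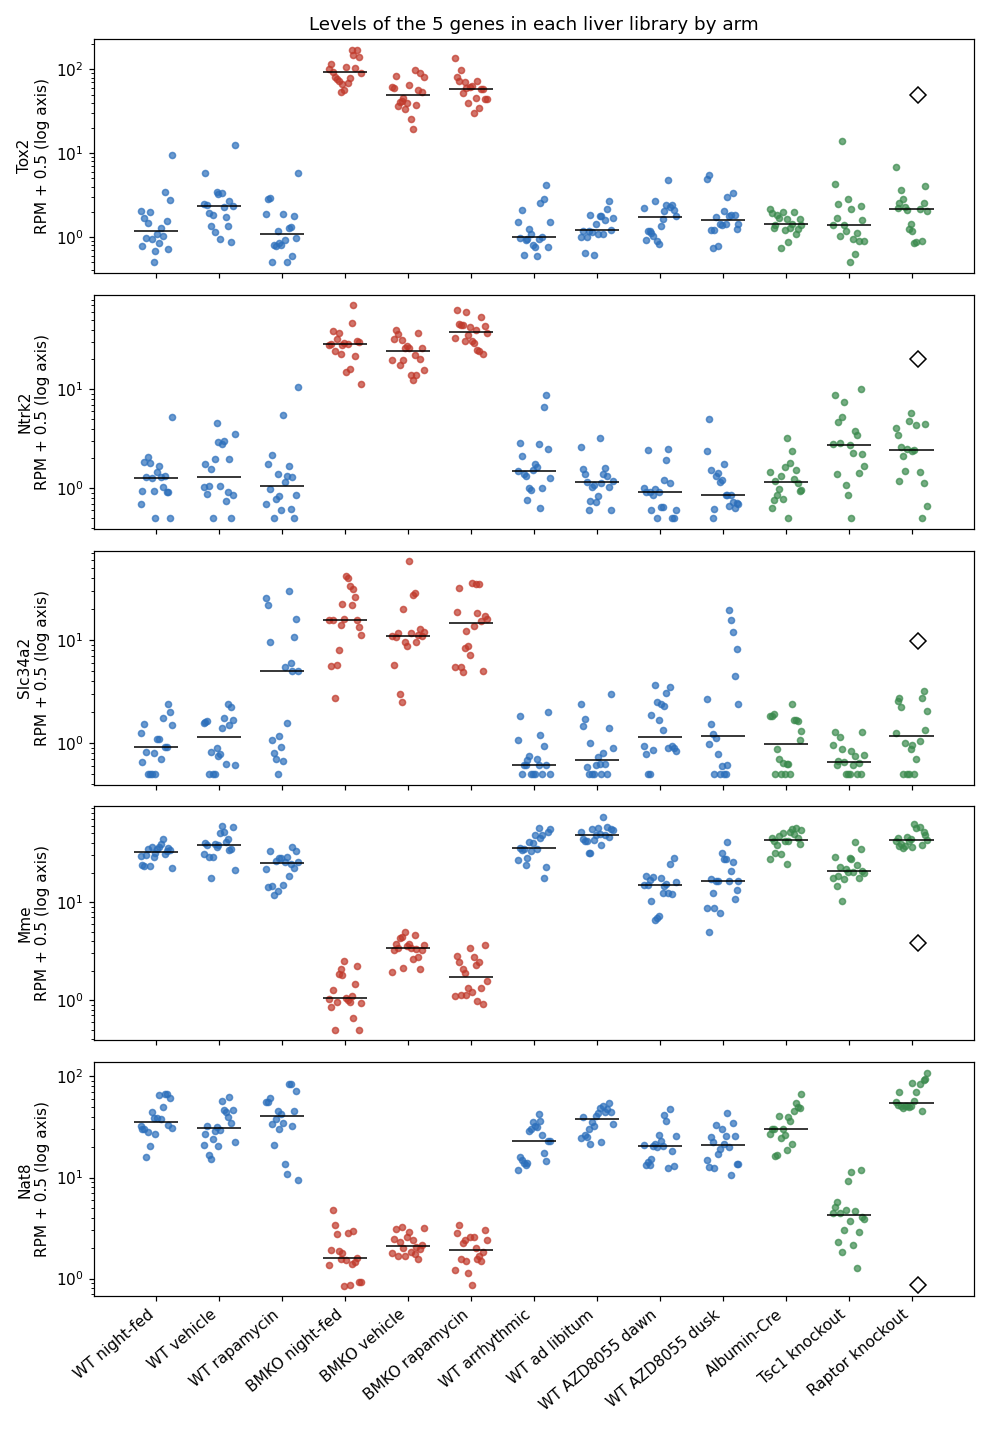
Level of each gene in every library of the 13 arms of the first table, 1 panel per gene, on a log axis of RPM + 0.5; points are single libraries (blue WT, red BMKO, green Albumin-Cre and liver knockouts), horizontal bars are medians and the open diamond is the RPKO library in the BMKO range. Tox2, Ntrk2 and Slc34a2 are high and Mme and Nat8 low in the 3 BMKO arms, Slc34a2 spreads up to 29.2 RPM in WT given rapamycin, Nat8 is low in TSKO, and that RPKO library lies in the BMKO range in every panel.

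Beyond the genotype contrast, 179 libraries of the first table were neither BMKO nor the RPKO library named above. None of the 179 lay in the range of the 54 BMKO libraries for Tox2 (BMKO 19.0 to 173 RPM, the others up to 13.5 RPM), for Ntrk2 (BMKO 10.7 to 69.7 RPM, the others up to 10.1 RPM) or for Mme (BMKO up to 4.44 RPM, the others from 4.46 RPM). For Mme the nearest library, from the dusk AZD8055 arm, was thus almost at the BMKO limit. With the RPKO library kept, 1 of 180 lay in the BMKO range for each of Tox2, Ntrk2 and Mme. For Slc34a2 25 of the 179 lay in the BMKO range: 10 of 18 WT libraries with rapamycin, 6 of 18 with AZD8055 at dusk, 4 of 18 with AZD8055 at dawn, 4 of 17 RPKO and 1 of 18 fed ad libitum. For Nat8 13 of the 179 did, all of them among the 18 TSKO libraries.

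Other genes of each pathway were set beside the 5, from lists that leave them out. Across all genes tested by limma, 71.7% differed between uninjected BMKO and WT (4258 higher, 4645 lower, median log2 difference -0.06), 21.7% with vehicle (1235 and 1459, median -0.00) and 44.4% with rapamycin (2657 and 2859, median -0.02). Of the TOX family, 2 of 3 other members were measured. Tox, a regulator of T-cell development, fell from a median of 8.55 to 3.66 RPM in uninjected livers (log2 -1.15, adjusted p = 4.78e-10), opposite to Tox2, and was lower with vehicle (-0.70, adjusted p = 0.000256) and rapamycin (-1.09, adjusted p = 1.31e-08). Tox4 rose in uninjected livers (0.27, adjusted p = 0.00901) and was at 0.04 and -0.06 with vehicle and rapamycin. The family's median was -0.44 uninjected, -0.33 with vehicle and -0.57 with rapamycin.

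For the neurotrophin pathway, 10 of 16 listed ligands, receptors and adaptors were tested, with 3 higher and 3 lower uninjected, 0 higher and 3 lower with vehicle and 0 higher and 4 lower with rapamycin (medians 0.07, -0.16 and -0.13). Bdnf, the gene of the ligand of TrkB, fell in all 3 backgrounds while Ntrk2 was high: from a median of 3.07 to 0.817 RPM uninjected (log2 -1.60, adjusted p = 1.67e-11), with -1.08 (adjusted p = 7.05e-06) under vehicle and -0.86 (adjusted p = 0.000192) under rapamycin. The adaptor gene Gab1 also fell in all 3 (-0.68, -0.47 and -0.82; adjusted p = 0.000235, 0.0346 and 4.49e-05). The adaptor gene Shc1 rose uninjected (0.84, adjusted p = 5.86e-13) but fell with vehicle (-0.29, adjusted p = 0.0154) and rapamycin (-0.23, adjusted p = 0.0410).

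Among 5 tested genes of phosphate handling of 10 listed, 3 fell in each background and 1 rose in uninjected livers only by this threshold (medians -0.32, -0.29 and -0.56). Slc20a1, a phosphate importer, fell by 0.30, 0.41 and 0.56 (adjusted p = 0.0347, 0.0153 and 0.000277). Slc9a3r1, which encodes the scaffold NHERF1 that anchors phosphate transporters, fell by 0.32, 0.63 and 0.78 (adjusted p = 0.00141, 3.78e-08 and 3.95e-11). Xpr1, the phosphate exporter, fell uninjected and with vehicle (-0.45 and -0.29; adjusted p = 9.24e-05 and 0.0315) and was at 0.07 with rapamycin (adjusted p = 0.603).

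Of the 12 listed neprilysin relatives and other ectopeptidases, 5 were tested, with 2 higher and 3 lower uninjected, 0 and 1 with vehicle and 0 and 3 with rapamycin (medians -0.64, -0.14 and -0.73). Enpep, aminopeptidase A, fell from a median of 15.5 to 5.55 RPM in uninjected BMKO livers (-1.34, adjusted p = 3.11e-05), and Dpp4 from 71.8 to 37.4 RPM (-0.94, adjusted p = 5.68e-09). Anpep, aminopeptidase N, rose uninjected (1.18, adjusted p = 5.11e-06) and fell with rapamycin (-1.27, adjusted p = 4.90e-06).

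The mercapturate list held 22 NAT8 relatives and enzymes of this pathway, of which 9 were tested: 2 rose and 4 fell uninjected, 0 and 3 with vehicle, 0 and 7 with rapamycin (medians -0.18, -0.28 and -0.48). Nat8f5, a relative of Nat8, fell from 22 to 2.09 RPM uninjected (-3.11, adjusted p = 2.77e-23), with -2.59 under vehicle (adjusted p = 2.01e-18) and -2.43 under rapamycin (adjusted p = 3.53e-17). Nat8f4 and Nat8b-ps fell in uninjected livers alone by this threshold (-1.48 and -2.35; adjusted p = 9.10e-11 and 1.09e-12), with 0.01 and -0.09 under vehicle. The abundant Nat8f1 was at 238 RPM in uninjected WT and 223 RPM in BMKO (-0.27, adjusted p = 0.0356). These are near-identical copies, and reads may be divided among them in a way the counting does not show.

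Clock genes were measured in the same livers. Of 13 genes driven through E-boxes or D-boxes, 2 were higher and 8 lower uninjected, 0 and 9 with vehicle and 0 and 11 with rapamycin (medians -0.70, -0.79 and -1.0). Nr1d2, encoding REV-ERB beta, fell from 44.0 to 3.79 RPM uninjected (-3.42, adjusted p = 7.28e-31), and Nr1d1, encoding REV-ERB alpha, from 5.20 to 1.23 RPM (-1.91, adjusted p = 1.19e-15). Of 6 genes repressed by REV-ERB, 4, 5 and 6 were higher in the 3 backgrounds and 0 lower (medians 1.04, 1.25 and 1.07). Npas2 rose from 0.312 to 9.58 RPM uninjected (2.95, adjusted p = 1.73e-32) and Cry1 from 13.2 to 61.1 RPM (2.05, adjusted p = 1.82e-31).

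Some cell type markers differed between the genotypes too, unevenly over the 3 treatments. The summed level of 10 hepatocyte genes was 68783 to 87904 RPM in uninjected WT and 28619 to 61206 RPM in uninjected BMKO. Albumin (Alb) had a median of 50451 RPM in WT and 13897 RPM in BMKO, where Serpina1c (12068 RPM), Ttr (11027 RPM) and Apoa1 (8441 RPM) made up much of the rest. By gene, 3 of the 10 were higher, 1 lower. The 6 measured of 8 listed cholangiocyte genes summed to 11.3 to 45.2 RPM in WT and 39.9 to 84.6 RPM in BMKO. Sox9 rose from 14.1 to 53.5 RPM and Spp1 fell from 6.25 to 2.99 RPM, while the defining bile duct keratins Krt19 and Krt7 and Epcam had medians under 1 RPM in both, with Krt19 at 0 in 4 WT and 3 BMKO libraries. The sum of 8 sinusoidal endothelial genes was 270.5 to 378 RPM in WT and 157 to 228 RPM in BMKO, with 6 lower and 1 higher. Of 8 Kupffer cell genes 5 were lower and 1 higher. In vehicle-injected livers 1 and 0 of the Kupffer genes and 2 and 1 of the endothelial genes were lower and higher. The hepatocyte sum still did not overlap there (67007 to 110311 RPM in WT, 33887 to 64876 RPM in BMKO), with 2 genes lower and 0 higher. Both tested cholangiocyte genes were higher with vehicle, Sox9 (20.4 and 45.7 RPM) and Spp1 (4.53 and 9.86 RPM), although their sum overlapped (12.7 to 87.7 and 39.6 to 74.1 RPM). With rapamycin the hepatocyte sum overlapped (40404 to 76804 RPM in WT, 26461 to 57732 RPM in BMKO). There the endothelial sum had a median of 262 RPM in both genotypes, and the Kupffer sum 198 RPM in WT and 206 RPM in BMKO. The part of these markers in the levels of the 5 genes was not tested.

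**Figure D2:**
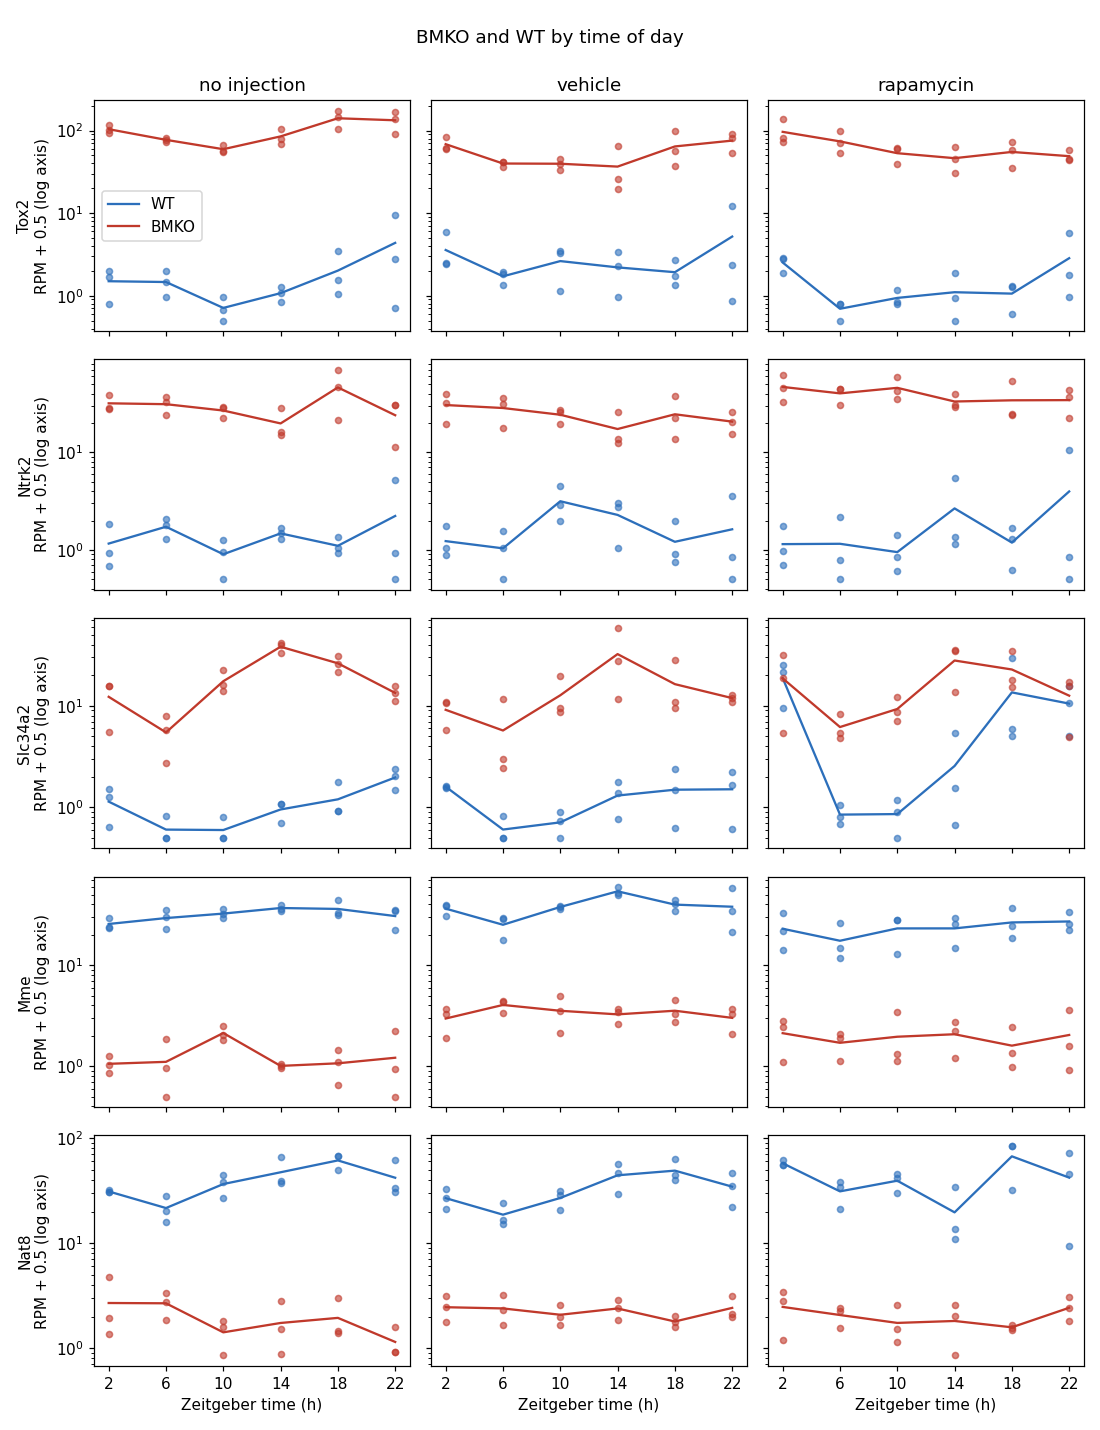
Each gene (rows) over the day in night-fed WT and BMKO livers, uninjected, with vehicle and with rapamycin (columns); points are libraries, lines join the means of 3, and the vertical axis is RPM + 0.5 on a log scale. The 2 genotypes stay apart at every time for 4 genes; for Slc34a2 they meet under rapamycin at ZT 2, 18 and 22.

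Time of day was tested in each arm by fitting a 24 h cosine curve to the log2 levels. A rhythm passed (adjusted p under 0.05 over all genes of the arm) in 18 of the 65 pairs of gene and arm in the first table, against 14.1% of all pairs of gene and arm (5.78% to 7.91% without 1 replicate number). Slc34a2 was rhythmic in 8 of 13 arms, Nat8 in 5, Mme in 3, Tox2 in 2 and Ntrk2 in 0. A gene was tested if it averaged 1 RPM or more over all libraries of the first table, BMKO included. Slc34a2 lay below that in uninjected WT (mean 0.578 RPM), in ad libitum fed WT (0.516 RPM) and in Albumin-Cre (0.652 RPM). There 11, 11 and 9 of 18 libraries held 3 or fewer reads of it, so its calls in these arms rest on few reads. For Ntrk2 limma gave 0 arms at an unadjusted p under 0.05 as well, and edgeR gave 0 adjusted and 1 unadjusted.

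In uninjected WT, Nat8 was lowest at ZT 6, with libraries at 15.6, 27.9 and 19.8 RPM, and highest at ZT 18, with 49.0, 66.5 and 67.0 RPM. The amplitude (from mean to peak) was 0.64 on the log2 scale with a fitted peak at ZT 17.3 (adjusted p = 0.00110). Vehicle-injected WT gave the same amplitude, 0.64, with a peak at ZT 17.4 (adjusted p = 0.00512). Nat8 kept a rhythm under arrhythmic feeding, with an amplitude of 0.70 and a peak at ZT 14.4 (adjusted p = 0.000316), and in ad libitum fed mice (0.40, ZT 18, adjusted p = 0.0267). In Albumin-Cre controls it passed narrowly (0.51, ZT 20.2, adjusted p = 0.0469) and did not with other scalings or without any 1 replicate number (adjusted p from 0.0523 to 0.233). In the joint fit of all 13 arms none of these 5 Nat8 rhythms passed (adjusted p from 0.0654 to 0.595), and the vehicle and ad libitum rhythms also fell short without replicate 1 (0.0711 and 0.280) or 2 (0.0982 and 0.135). Nat8 passed in none of the BMKO arms, where its medians were 1.09, 1.59 and 1.42 RPM uninjected, with vehicle and with rapamycin. In these 3 arms 5.61%, 5.49% and 0.274% of all genes were rhythmic, against 21.8%, 14.9% and 5.12% in the matching WT arms. The test of the difference between BMKO and WT fell short in uninjected livers (size 0.97, adjusted p = 0.0504; 0.0334 to 0.0421 with a pseudocount of 2, DESeq2 size factors or a replicate block) and with vehicle (0.75, adjusted p = 0.331).

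Slc34a2 was rhythmic in uninjected livers with and without Bmal1, and in 1 of the 3 BMKO arms by this threshold. In uninjected BMKO livers it was lowest at ZT 6, with 2.24, 5.23 and 7.44 RPM, and highest at ZT 14, with 40.8, 39.6 and 32.6 RPM (amplitude 1.20, peak ZT 15.9, adjusted p = 0.000451; 0.0678 without replicate 2). In uninjected WT it was 0 to 0.314 RPM at ZT 6 and 1.91, 1.52 and 0.990 RPM at ZT 22 (0.80, peak ZT 20.9, adjusted p = 0.00760), a call lost without any 1 replicate number (0.0505 to 0.115). The other night-fed control arm, Albumin-Cre, had a peak at ZT 22.2 (0.95, adjusted p = 2.68e-05). The peak of ad libitum fed WT fell at ZT 0.133 (0.89, adjusted p = 0.00262) and lost its call without replicate 1 (0.0534) or 2 (0.0698). With vehicle it did not pass in BMKO (0.95, peak ZT 16.1, adjusted p = 0.0794; 0.00109 to 0.00708 in the joint fit, with a replicate block or without replicate 1) or in WT (0.61, adjusted p = 0.127), nor in BMKO with rapamycin (0.80, adjusted p = 0.340). The BMKO-WT difference in rhythm had a size of 1.26 uninjected (adjusted p = 0.0557; 0.0135 to 0.0494 with total reads, a pseudocount of 2, the joint fit or without replicate 1) and 0.91 with vehicle (adjusted p = 0.443).

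Tox2 had a rhythm in uninjected BMKO livers, between 53.9, 66.9 and 56.3 RPM at ZT 10 and 173, 146 and 103 RPM at ZT 18 (amplitude 0.59, peak ZT 21.0, adjusted p = 0.00297), which did not pass without replicate 2 (0.226) or in the joint fit (0.166). In uninjected WT its amplitude was 0.77 (adjusted p = 0.103; 0.0260 by edgeR) at levels where 9 of 18 libraries held 3 or fewer Tox2 reads. Mme passed in ad libitum fed WT (0.28, peak ZT 18.2, adjusted p = 0.0229), a call lost without replicate 2 (0.258) or 3 (0.135) or in the joint fit (0.668), and in both AZD8055 arms described later. Over the 5 genes, 0 differences in rhythm between BMKO and WT passed uninjected, where 3.09% of all genes did, and 0 with vehicle, where 1.75% did. In each set 2 of 5 had an unadjusted p under 0.05 by limma, and edgeR also gave 0 adjusted and 2 unadjusted.

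Rapamycin was compared with vehicle in night-fed mice to see how the genes respond to mTORC1 inhibition with and without the clock. The same libraries gave the vehicle and rapamycin genotype contrasts that chose the genes, so these comparisons are not independent of the choice. Their sizes and adjusted p-values are given as a description, and nothing is read from their counts. In WT, 3 of 5 genes passed the threshold, where 18.5% of all genes did: Slc34a2 was higher and Tox2 and Mme lower. In BMKO, Mme alone passed, where 11.9% of all genes did.

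The mean of Slc34a2 in WT was higher with rapamycin at all 6 times, with the groups apart at 3 of them. At ZT 2 vehicle libraries held 1.07, 1.09 and 1.14 RPM and rapamycin libraries 24.8, 21.0 and 9.02 RPM. At ZT 18 they held 0.125, 1.88 and 0.976 RPM with vehicle and 29.2, 5.42 and 4.53 RPM with rapamycin, and at ZT 22 1.74, 1.17 and 0.116 RPM against 10.2, 15.3 and 4.53 RPM. The rapamycin library at 10.2 RPM held only 0.706 M reads, of which 3 make 4.25 RPM before scaling. The groups did not overlap at these 3 times. At ZT 14 they did overlap, with 0.275, 0.888 and 1.26 RPM with vehicle and 0.172, 4.95 and 1.05 RPM with rapamycin. At ZT 6 and 10 no library of either group exceeded 0.677 RPM. The daily mean was 1.74 ± 0.24 higher on the log2 scale, or 3.33-fold (adjusted p = 1.13e-07). The rhythm under rapamycin had an amplitude of 2.32 (24.8-fold from trough to peak) with a peak at ZT 21.9 (adjusted p = 0.000239), and it differed from that of BMKO given rapamycin by 2.16 (adjusted p = 3.01e-05), where 1.06% of all genes differed. Without replicate 1 that difference was 1.24 (adjusted p = 0.105).

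In BMKO, Slc34a2 changed by 0.20 ± 0.24 (95% interval -0.27 to 0.68, adjusted p = 0.642) in the daily mean, and by 0.78 without replicate 1 (adjusted p = 0.0274). At ZT 14, where it peaked in BMKO, the 3 vehicle libraries held 57.4, 11.1 and 27.0 RPM and the 3 rapamycin libraries 34.8, 13 and 34.5 RPM.

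Tox2 in WT had a median of 1.83 RPM (0.373 to 11.9) with vehicle and 0.576 RPM (0 to 5.29) with rapamycin, groups that overlapped broadly. Its daily mean fell by 0.90 (SE 0.23, adjusted p = 0.00316), a call lost without replicate 2 (adjusted p = 0.109) or 3 (0.0757). Uninjected WT, with a median of 0.686 RPM, lay nearer to the rapamycin group than to the vehicle group. In BMKO the change was 0.24 (interval -0.22 to 0.69, adjusted p = 0.555).

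Mme fell in both genotypes. In WT it went from 37.6 RPM (17.2 to 58.8) to 24.6 RPM (11.3 to 35.9), a log2 change of -0.73 ± 0.17 (adjusted p = 0.00121). In BMKO it went from 2.90 RPM (1.42 to 4.44) to 1.24 RPM (0.412 to 3.14), a change of -0.91 ± 0.17 (adjusted p = 8.72e-05). The groups overlapped in both genotypes. Nat8 was at 0.23 in WT (interval -0.14 to 0.59) and -0.21 in BMKO (interval -0.57 to 0.15). Ntrk2 was at -0.23 in WT (interval -0.74 to 0.29) and 0.71 in BMKO (interval 0.19 to 1.23, adjusted p = 0.0592; 0.0334 by edgeR).

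The difference between the rapamycin changes of BMKO and WT is also that between the vehicle and rapamycin genotype contrasts that chose the genes, so it is a description. It was 1.14 ± 0.33 for Tox2 and -1.53 ± 0.34 for Slc34a2 (-0.76 without replicate 1). These 2 of 5 genes and 14.3% of all genes passed the threshold, from which nothing is read.

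**Figure D3:**
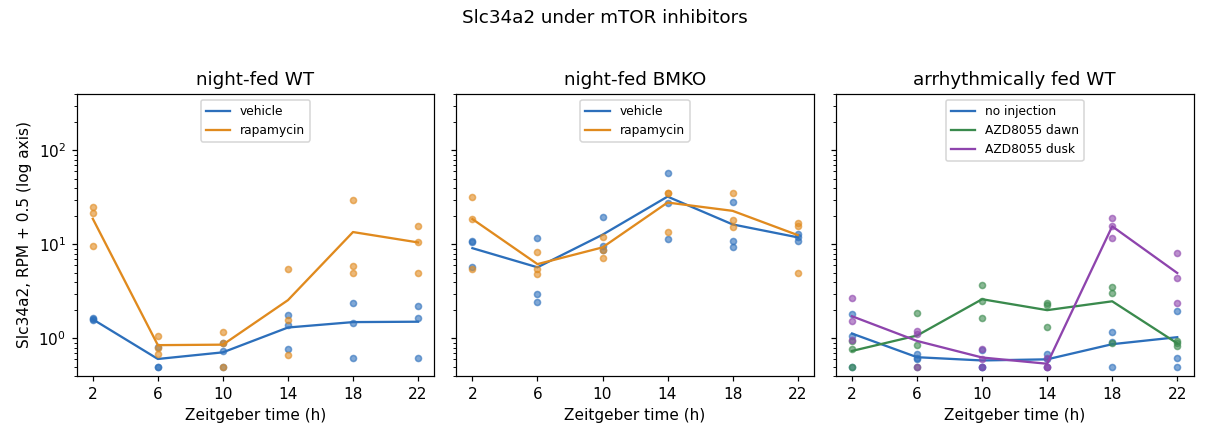
Slc34a2 over the day under mTOR inhibitors, on a log axis of RPM + 0.5: WT and BMKO with vehicle or rapamycin, and arrhythmically fed WT uninjected or with AZD8055 at dawn or dusk; points are libraries, lines join means of 3. Rapamycin libraries of WT reach 29.2 RPM at ZT 18 and those with dusk AZD8055 18.8 RPM, while no uninjected arrhythmically fed library exceeds 1.48 RPM.

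AZD8055 was given to arrhythmically fed mice, which lack a feeding rhythm, and compared with uninjected mice on that schedule, since no vehicle arm of that schedule was among the samples. Injection and drug thus cannot be told apart. With injection at dawn 3 of 5 genes changed, where 41% of all genes did, and at dusk 4 of 5, where 50.8% did. Slc34a2 rose and Ntrk2 and Mme fell after both, and Tox2 rose after dusk. Tox2, Ntrk2 and Slc34a2 averaged 0.905, 1.74 and 0.308 RPM in uninjected arrhythmically fed WT. They entered the test by a mean over all libraries, BMKO included, so nothing is read from these counts. With no filter on low values, none of the 160 single results of the 5 genes changed.

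Slc34a2 was at 0.683, 0 and 0.426 RPM at ZT 18 without injection and at 18.8, 15.1 and 11.3 RPM after dusk AZD8055, with 0, 0 and 0.116 RPM at ZT 14 in the same arm. By ZT 22 it was at 3.92, 7.62 and 1.87 RPM, and from ZT 2 to ZT 10 no library exceeded 2.18 RPM. After dawn AZD8055 its highest time was ZT 10, with 3.17, 2.02 and 1.15 RPM, against 0.251, 0 and 0 RPM without injection. The daily mean rose by 1.28 ± 0.21 after dusk (adjusted p = 2.39e-06) and by 0.89 ± 0.21 after dawn (adjusted p = 0.000664). By edgeR the dusk value was 1.77 with an adjusted p of 0.0810. The rhythm had an amplitude of 2.03 with a peak at ZT 20.6 after dusk (adjusted p = 4.39e-06) and of 0.93 with a peak at ZT 13.7 after dawn (adjusted p = 0.0106; 0.158 without replicate 1 and 0.184 without replicate 3).

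Mme had a median of 34.9 RPM (17.2 to 55.7) without injection, 14.5 RPM (6.11 to 27.8) after dawn and 15.9 RPM (4.46 to 40.1) after dusk AZD8055. Its log2 change was -1.38 ± 0.16 after dawn (2.60-fold, adjusted p = 6.14e-09) and -1.19 ± 0.16 after dusk (2.28-fold, adjusted p = 7.17e-08). The lowest time was ZT 10 after dawn (6.11, 6.33 and 6.70 RPM, against 40.7, 32.4 and 39.1 RPM without injection) and ZT 2 after dusk (8.30, 4.46 and 16.8 RPM, against 26.1, 35.3 and 33.4 RPM). The fitted peaks were at ZT 21.8 after dawn (amplitude 0.51, adjusted p = 0.0142) and ZT 14.7 after dusk (0.78, adjusted p = 0.0137). The dawn rhythm did not pass without any 1 replicate number (0.0577 to 0.132) or in the joint fit (0.0628), nor the dusk rhythm without replicate 1 (0.145) or 2 (0.0538).

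Ntrk2 had a median of 1.01 RPM (0.137 to 8.20) without injection, 0.413 RPM (0 to 1.98) after dawn and 0.355 RPM (0 to 4.46) after dusk AZD8055, with changes of -0.92 ± 0.23 (adjusted p = 0.00133) and -0.72 ± 0.23 (adjusted p = 0.00816). The groups overlapped, and in each AZD8055 arm 9 of 18 libraries held 3 or fewer Ntrk2 reads. Tox2 had a median of 0.495 RPM (0.0960 to 3.63) without injection and 1.09 RPM (0.237 to 4.93) after dusk AZD8055 (0.55 ± 0.21, adjusted p = 0.0236). That call did not hold without replicate 2 (0.303) or 3 (0.0584) or in the joint fit (0.0633). After dawn it was at 0.45 (adjusted p = 0.0748) with a rhythm of amplitude 0.66 and a peak at ZT 18.7 (adjusted p = 0.0297), which did not pass without replicate 2 (0.286) or 3 (0.246), by edgeR (0.0570) or in the joint fit (0.119). Nat8 was at -0.08 after dawn (interval -0.40 to 0.24) and -0.10 after dusk (interval -0.42 to 0.22).

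Tsc1 knockout livers, in which the brake on mTORC1 is removed in hepatocytes, were compared with Albumin-Cre controls. Here 3 of 5 genes changed, where 36.6% of all genes did. In Albumin-Cre, the control of both liver knockouts, Tox2, Ntrk2 and Slc34a2 averaged 0.993, 0.796 and 0.652 RPM. They entered the tests by a mean over all libraries, BMKO included, so nothing is read from the counts. Nat8 fell from a median of 29.8 RPM (15.8 to 66.0) to 3.75 RPM (0.767 to 11.2), with no overlap, a log2 change of -2.98 ± 0.32 or 7.88-fold (adjusted p = 3.54e-10). It was low at every time, from a mean of 2.35 ± 1.38 RPM (SD, n = 3) at ZT 6 to 6.06 ± 4.48 RPM at ZT 22. Mme fell from 42.7 RPM (24.0 to 55.9) to 20.1 RPM (9.77 to 40.2), groups that overlapped (-0.96 ± 0.19, adjusted p = 9.00e-05; 0.0702 without replicate 3). Both thus changed in the direction seen in BMKO, as did Ntrk2. Of the genes not called, Tox2 had the same sign as in BMKO and Slc34a2 the opposite. Ntrk2 rose from 0.657 RPM (0 to 2.69) to 2.26 RPM (0 to 9.61), overlapping (1.17 ± 0.35, adjusted p = 0.00828; 0.0900 without replicate 2). Slc34a2 was at -0.48 (interval -0.87 to -0.08, adjusted p = 0.0531; 0.0224 without the RPKO library in the BMKO range, which shares the estimate of spread) and Tox2 at 0.13 (interval -0.51 to 0.77). Among the other genes, the mercapturate list had 2 of 9 higher and 1 lower in TSKO (median -0.03), and the E-box and D-box clock list 2 of 13 higher and 7 lower (median -0.32), against 2282 higher and 2204 lower of all 12267 genes tested (median -0.01). Of the cholangiocyte genes, Spp1 rose from 8.49 to 17.6 RPM, and its part in these results was not tested.

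Raptor knockout livers, in which mTORC1 is lost, had 1 of 5 genes changed, where 42.4% of all genes were. Ntrk2 rose from a median of 0.657 RPM to 1.96 RPM (0 to 19.5), by 1.08 ± 0.35 (adjusted p = 0.0125), and by 0.82 without the library in the BMKO range (adjusted p = 0.0291). Without replicate 2 it was not called (0.251). Nat8 stood at 53.6 RPM (0.365 to 107.8) and its value of 0.64 ± 0.32 (adjusted p = 0.0982) became 0.98 ± 0.19 (adjusted p = 3.91e-05) without that library, when the RPKO libraries ranged from 45.0 to 107.8 RPM. With that library kept, edgeR (0.00195) and the joint fit (0.0154) also called it. The value of Nat8 was thus above controls in RPKO, called or not with the choice of libraries and fit, and below them in TSKO. Mme was at -0.11 with and 0.09 without the library, neither called (adjusted p = 0.678 and 0.559). Tox2 was at 0.73 (adjusted p = 0.0590; 0.0380 by edgeR, 0.0154 in the joint fit) and at 0.44 without it (adjusted p = 0.135). Slc34a2 was at 0.42 (adjusted p = 0.0818) and at 0.28 without it (adjusted p = 0.193).

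The same library also altered the rhythms of the RPKO arm. Slc34a2 had an amplitude of 1.11 with a peak at ZT 22 with it (adjusted p = 0.0211; 0.0671 without replicate 2, 0.227 without replicate 3) and 1.0 at ZT 23.0 without it (adjusted p = 0.00921). Tox2 went from 0.76 (adjusted p = 0.352) to 0.92 with a peak at ZT 2.26 (adjusted p = 0.00448), and Nat8 from 0.43 (adjusted p = 0.75) to 0.36 with a peak at ZT 20.3 (adjusted p = 0.0117).

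Feeding schedule was compared in uninjected WT, which carry Bmal1. All BMKO arms were night-fed, so meal timing and the clock cannot be told apart here. The 3 comparisons share arms. Against night feeding, arrhythmic feeding changed 1 of 5 genes (44% of all genes) and ad libitum feeding 1 of 5 (53% of all genes). Between arrhythmic and ad libitum feeding 2 of 5 changed (8.38% of all genes). Tox2, Ntrk2 and Slc34a2 had medians of at most 1.01 RPM on all 3 schedules, and none of the 3 passed.

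Nat8 was lowest under arrhythmic feeding, with a median of 22.7 RPM (11.5 to 41.6), against 34.9 RPM (15.6 to 67.0) under night feeding and 37.2 RPM (21.1 to 54.6) ad libitum. The groups overlapped. The log2 change was -0.76 ± 0.11 from night feeding (adjusted p = 3.12e-07) and -0.70 ± 0.11 from ad libitum feeding (adjusted p = 6.74e-05; 0.0697 in a fit of all 13 arms together), while ad libitum and night feeding differed by -0.06 (interval -0.28 to 0.17). The gap was widest at ZT 2, with 11.5, 15.4 and 14.3 RPM under arrhythmic and 31.9, 29.8 and 30.0 RPM under night feeding.

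Mme was highest under ad libitum feeding, with a median of 47.9 RPM (31.2 to 73.0), against 34.9 RPM (17.2 to 55.7) under arrhythmic and 32.1 RPM (22 to 43.2) under night feeding. Ad libitum feeding exceeded night feeding by 0.60 ± 0.11 (adjusted p = 9.37e-06). Arrhythmic feeding was below ad libitum (a log2 change of -0.40, adjusted p = 0.0151), which did not hold without replicate 1 (0.212) or 2 (0.0669) or in the fit of all arms (0.225). Arrhythmic and night feeding differed by 0.20 (interval -0.02 to 0.41, adjusted p = 0.135).

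**Figure D4:**
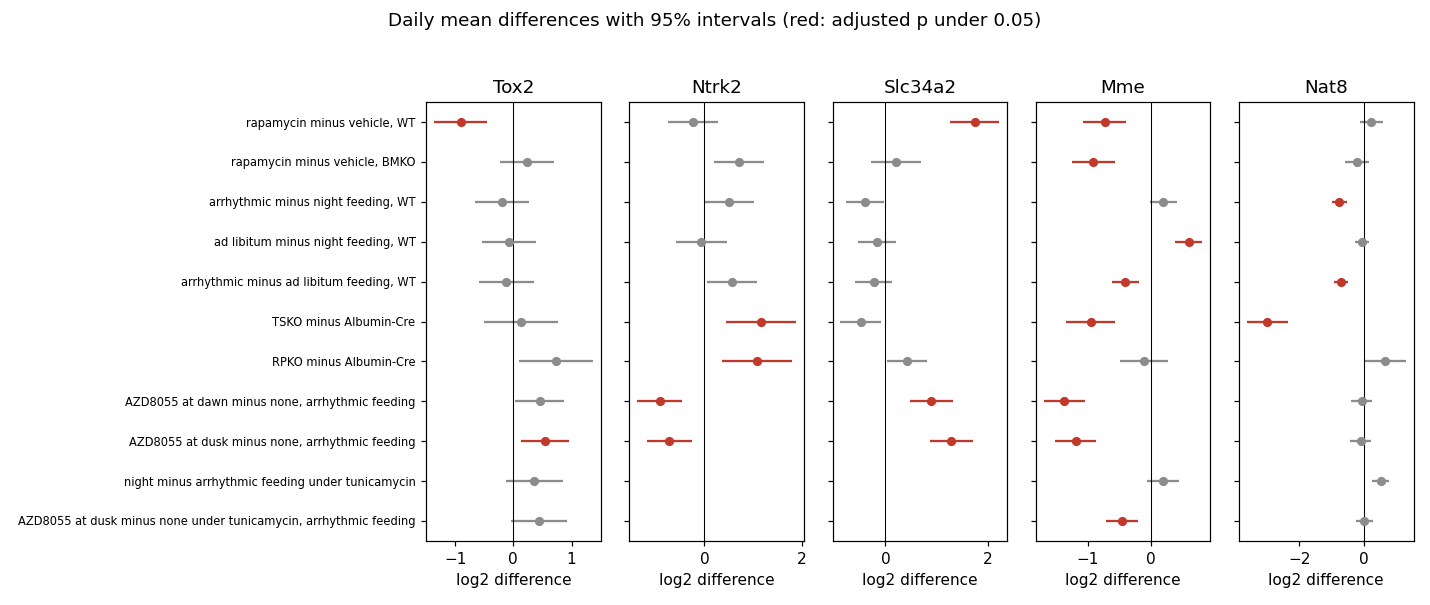
Log2 differences of daily means with 95% intervals for the 5 genes (panels) in the rapamycin, feeding, liver knockout, AZD8055 and tunicamycin comparisons; red points passed an adjusted p of 0.05 and grey points did not, and a panel has no point where a gene was not tested. Nat8 in TSKO has the largest difference at -2.98. Slc34a2 rises under rapamycin in WT and under AZD8055, and Mme falls under both inhibitors. The rapamycin points are a description, since their libraries entered the choice of genes.

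Under tunicamycin, Tox2, Mme and Nat8 passed the filter on low values and Ntrk2 and Slc34a2 did not. Medians of the 2 untested genes were 0.0481 to 0.152 RPM for Ntrk2 and 0.142 to 0.252 RPM for Slc34a2 over the 3 arms of 16 libraries. Slc34a2 after dusk AZD8055 had no library over 2.49 RPM here. The tables were scaled separately and sampled at other times, so their levels were not compared.

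Between night and arrhythmic feeding under tunicamycin 0 of 3 genes passed by limma, where 0.555% of all genes did, and 1 of 3 had an unadjusted p under 0.05; edgeR gave the same counts. That gene was Nat8, with medians of 20.0 RPM (10.6 to 40.2) and 16.5 RPM (6.05 to 24.1) and a difference of 0.51 ± 0.13 (adjusted p = 0.0529). Dusk AZD8055 changed 1 of 3 genes, where 8.85% of all genes changed. Mme went from 23.1 RPM (14.8 to 35.9) to 16.4 RPM (5.44 to 33.6), overlapping, a change of -0.46 ± 0.13 (adjusted p = 0.0178) that did not hold without replicate 1 (0.111), 3 (0.130) or 4 (0.0821). Nat8 was at 0.01 (interval -0.25 to 0.28) and Tox2 at 0.44 (adjusted p = 0.281).

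Rhythms over the 4 times passed in 4 of the 9 pairs of gene and tunicamycin arm, against 14.6% of all pairs. Nat8 peaked at ZT 22.1 in night-fed mice (amplitude 0.56, adjusted p = 0.00269), with 25.0, 31.3, 40.2 and 33.9 RPM at ZT 22, and at ZT 14.3 in arrhythmically fed mice (0.60, adjusted p = 0.0158), with 21.5, 19.8, 24.1 and 18.2 RPM at ZT 16. The second call was lost without replicate 3 (0.212) or 4 (0.0606). Mme peaked at ZT 21.3 in night-fed mice (0.41, adjusted p = 0.0163) and at ZT 15.5 with dusk AZD8055 (0.63, adjusted p = 0.00931). The first of these was lost without replicate 1 (0.137), 3 (0.0743) or 4 (0.0727) and the second without replicate 1 (0.0616) or 4 (0.0691). Tox2 passed in 0 of 3 arms by limma and by edgeR, with 0 at an unadjusted p under 0.05 by either.

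The genes with the most similar pattern were found from Pearson's r over the mean levels of the 78 groups of arm and time of the first table, as a description, since these groups share arms and the genotype step dominates them. Tox2 was nearest to Loxl4 (0.94), Nckap5 (0.93) and Ntrk2 (0.93), and Mme to Alb (0.91), mt-Nd1 (0.90) and Aqp4 (0.90). Nat8 was nearest to Col27a1 (0.90) and then to Mme (0.87), and Slc34a2 to Rfxank (0.87). Over the 60 groups without BMKO the likeness among the 5 genes was weaker: r was 0.25 for Tox2 with Ntrk2 (0.93 over all 78) and 0.47 for Mme with Nat8. Outside BMKO, Slc34a2 was nearest to Blcap (0.78), Mme to Ces2c (0.80), a carboxylesterase gene, Nat8 to Tstd1 (0.80), Ntrk2 to Cib3 (0.69) and Tox2 to Chic1 (0.66). The 60 groups include the RPKO library in the BMKO range.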

How the data were processed

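Livers of 282 mouse libraries were profiled by 3′ tag sequencing (QuantSeq 3′ mRNA-Seq FWD). Per the submitters' processing notes, the authors used STAR 2.7.3a, SAMtools and the mouse build mm10 (GRCm38.p6). The program that counted reads and its annotation are not stated here. The 2 deposited tables hold a normalised signal per gene, in which each library's read counts are divided by 1 factor. Whole reads (within 0.01 read) were recovered for 99.914% of the first table's and 100.0% of the second table's values. Fits with the RPKO arm omit 197 genes that had another step there. Libraries were scaled by TMM (edgeR 4.0.16). The test was limma-trend 3.58.1 in R 4.3.3 on log2(RPM + 0.5), for genes averaging 1 RPM or more over the table (12413; 12267 with RPKO; 12261 in the second), with 1 mean per arm and time and Benjamini-Hochberg adjustment over all genes at 0.05. Fits held the arms of 1 comparison set. Log2 differences understate low genes. A rhythm was the joint test of a 24 h cosine and sine. The fits were tested on simulated data. Genes named besides the 5 come from fixed pathway lists and from the 3 highest correlations, except Serpina12, 3930402G23Rik and Gm4956, chosen after their values were seen. The members and lists were chosen with earlier results of these data known. Replicates are biological per the labels; p-values measure the spread between these samples. No 2 libraries correlated above 0.9878, and none was counted as a repeat. Deviations of same-numbered replicates correlated weakly (medians 0.0112 to 0.0638 over the fits, against -0.0352 to -0.00924 for other numbers). Numbers were therefore not treated as pairs, although a shared part in some arms remains possible. Alternatives were DESeq2 1.42.0 size factors, total reads, no filter, pseudocounts of 0.1 and 2, edgeR's quasi-likelihood test on recovered reads, a joint fit, a replicate block, leaving out each replicate number, leaving out libraries under 3 M reads and, added after seeing the data, leaving out the RPKO library in the BMKO range.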

Additional observations from a re-analysis of the deposited data

Results flagged for a closer look

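In 60 groups of 4 tunicamycin libraries (5 genes, 3 arms, 4 times), 6 had a library far from the other 3. The limit used gives about 1 in 20 by chance for normally distributed values. That rate does not apply to genes near 0 reads, such as Ntrk2 here (medians 0.0481 to 0.152 RPM), so nothing is read from the count. The highest library stood out for Nat8 in arrhythmically fed mice at ZT 22 (22.5 RPM), for Ntrk2 in night-fed mice at ZT 4 (0.702 RPM) and ZT 16 (3.47 RPM), and, with dusk AZD8055, for Ntrk2 at ZT 4 (1.81 RPM) and Tox2 at ZT 16 (1.54 RPM). The lowest stood out for Mme in night-fed mice at ZT 16 (18 RPM).

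The change with rapamycin stood apart between BMKO and WT for Tox2 (1.14 on the log2 scale, BMKO minus WT) and Slc34a2 (-1.53; -0.76 without replicate 1). Both are differences of the contrasts that chose the genes, given as descriptions. The rhythm of Slc34a2 under rapamycin differed between the genotypes by 2.16 (adjusted p = 3.01e-05) and by 1.24 without replicate 1 (adjusted p = 0.105).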

How the results depend on the processing

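Depth limits Tox2, Ntrk2 and Slc34a2 outside BMKO: in uninjected WT 9, 8 and 11 of 18 libraries held 3 or fewer reads of them. The direction of BMKO against WT held for all 15 of 15 gene and treatment values under every alternative run, and no result of the 5 genes reversed with a call; 51 of 160 single results changed side of the threshold under at least 1 alternative, and the cause was not tested. The number of the 5 genes called changed as follows. For the rhythm difference, 1 became 2 with DESeq2 size factors, total reads or the joint fit and 3 with a pseudocount of 2. With replicate number as a block it was 2, and this block moved the tunicamycin feeding count from 0 to 1. Same-numbered libraries were weakly alike in their deviations (median correlation from 0.0112 to 0.0638 over the fits, with 20.1% to 39.7% of pairs above 0.1). That feeding count was also 1 with DESeq2 size factors, with a pseudocount of 2 and without replicate 2 (range 0 to 1). Rapamycin in BMKO went from 1 to 2 with a pseudocount of 2, by edgeR and without libraries under 3 M reads. RPKO went from 1 to 2 with a pseudocount of 2 and without the RPKO library in the BMKO range, and to 3 by edgeR and in the joint fit, in which arrhythmic against ad libitum feeding went from 2 to 0. Leaving out a replicate number gave 8 to 14 rhythms in the 13 arms (18 with all) and 1 to 4 under tunicamycin (4 with all). It gave 1 gene for the rapamycin interaction (2 with all), 1 to 2 for rapamycin in BMKO, RPKO, arrhythmic against night and arrhythmic against ad libitum feeding, and 0 to 1 for AZD8055 under tunicamycin.

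Scaling by total reads moved the median of all genes by 0.16 in BMKO against WT with vehicle, 0.15 with rapamycin and -0.21 in RPKO; log2 values are relative to that. The share of higher genes among all called went from 45.84% to 81.32% (BMKO, vehicle), 48.17% to 72.87% (BMKO, rapamycin), 46.37% to 13.30% (RPKO), 50.87% to 33.00% (TSKO), 52.91% to 64.56% (rapamycin in WT), 55.88% to 12.44% (feeding under tunicamycin) and 47.37% to 58.06% (AZD8055 under tunicamycin). Counts over all genes moved by over 1.5 times in the joint fit for 6 of 18 comparisons: arrhythmic against ad libitum feeding (1040 to 200), rapamycin in BMKO (1476 to 2502), the rapamycin interaction (1769 to 2903) and the rhythm differences (383 to 907, 217 to 378 and 132 to 220). They did so under total reads for feeding with tunicamycin (68 to 225). Leaving out a replicate number moved 12 of 18 that far. The lowest counts were 183 for arrhythmic against ad libitum feeding and 97 for the interaction (both without replicate 1), 618 for rapamycin in BMKO (without 1), 1252 for rapamycin in WT, 1668 for BMKO against WT with vehicle (2694 with all) and 3272 for arrhythmic against night feeding (5461 with all; these 3 without 2), 3267 for dawn AZD8055 (5088 with all) and 410 for AZD8055 under tunicamycin (1085 with all; both without 3) and 13 for feeding under tunicamycin (without 4). For the rhythm differences they were 82 and 50 (without 2) and 53 (without 3). Rhythmic genes per arm moved that far in 6 of 16 arms in the joint fit, namely uninjected (696 to 3255), vehicle (681 to 1487) and rapamycin BMKO (34 to 165), rapamycin (635 to 1965), ad libitum (2050 to 819) and arrhythmic WT (987 to 519), and in all 16 of 16 without some replicate number. Over the 13 arms the share of rhythmic pairs was 15.7% in the joint fit and 18.2% with the replicate block, against 14.1%. By arm, the block moved rhythmic genes from 681 to 2528 in vehicle BMKO, from 2703 to 3985 in uninjected WT and from 987 to 968 in arrhythmic WT. Over the tunicamycin arms the share of rhythmic pairs was 8.04% to 11.1% without 1 replicate number, against 14.6%.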
